A study of Rattus norvegicus with 3 samples.

Results

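Aminoacyl-tRNA synthetases, the enzymes that charge each transfer RNA with its amino acid, were followed in Rat1 fibroblasts that carried Myc, set against Rat1 fibroblasts that carried the empty vector. Members were the Swiss-Prot entries whose name begins with SY followed by the letter of an amino acid, with or without a chain or form letter, whatever their species. Of 1053 protein entries in the whole series, 10 that met this rule are described, and they stood for 9 distinct synthetases. Among these, the soluble fraction held 9 of its 620 (SYEP_HUMAN, SYG_MOUSE, SYR_MOUSE, SYN_HUMAN, SYH_HUMAN, SYTC_HUMAN, SYQ_HUMAN, SYFB_HUMAN and SYFB_MOUSE), the crude mitochondrial fraction 2 of 207 (SYK_MOUSE and SYR_MOUSE), and the chromatin-enriched fraction 0 of 400. Enzyme names are a reading of these entry names from general knowledge, and the suffix names the database species, not the cells, which were rat.

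Rat1 is an established rat fibroblast line, and Myc is a transcription factor that drives growth and, without serum, apoptosis. Both lines had been kept without serum for 12 h. Cysteine-containing peptides of each fraction carried the heavy isotope-coded affinity tag (ICAT) in Myc cells and the light tag in vector cells, and the mixture was measured by mass spectrometry as a ratio of Myc over vector. There was 1 mixture per fraction and no swap of the tags, so no value below has a replicate check, tag and cell line cannot be told apart, and each ± is the SD that the authors deposited with the ratio. The labels do not say whether either line was a clone or a pool.

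Each synthetase recognises its own amino acid and the matching transfer RNAs, and joins them at the cost of ATP, so that the ribosome can read the code. The enzymes fall into a pair of unrelated structural classes, called I and II. In animal cells several of them, among them those for glutamine, arginine, lysine and the fused glutamate and proline enzyme, sit together on scaffold proteins in the multi-synthetase complex, while others, such as those for glycine, asparagine, histidine and threonine, work outside it. The charged transfer RNA is passed to elongation factor 1, which delivers it to the ribosome.

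The tables held 3608 soluble, 2386 chromatin and 789 mitochondrial peptide lines. The reported synthetases took up 17 of the soluble lines (0.471%) and 2 of the mitochondrial lines (0.253%). The median ratio over all measured entries was 1.34 in the soluble and 1.15 in the mitochondrial fraction. Of the fibroblast names looked for, 2 of 7 were in the soluble table (galectin-1 and SPARC), 5 of 7 in the chromatin table and 5 of 7 in the mitochondrial table. Vimentin and fibronectin were in the chromatin and mitochondrial tables and not in the soluble one. The soluble table held 4 of 5 names of cytosolic enzymes and 2 of 6 names of mitochondrial proteins. In the chromatin-enriched fraction 1 cytosolic and 3 mitochondrial names were found, and in the mitochondrial fraction 2 cytosolic and 3 mitochondrial ones. Of 7 names of chromatin proteins, 5 were in the chromatin-enriched fraction, 1 in the mitochondrial and 0 in the soluble one.

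In the soluble fraction, 2 of the reported synthetases were higher in Myc cells, 1 was lower, and the other 4 with a ratio did not pass the rule. Glycyl-tRNA synthetase stood at a ratio of 2.06 ± 0.078 and arginyl-tRNA synthetase at 1.64 ± 0.248, both above 1. Glutaminyl-tRNA synthetase fell to 0.643 ± 0.031. The rule for higher or lower asked for a ratio of 1.5 or more, or of 0.667 or less, whose log was also over 2 times its deposited error (SD over ratio) away from 0. By this rule 30.6% of the 542 measured soluble entries were higher and 8.12% lower, against 28.6% and 14.3% of the 7 synthetases, shares that lie near those of the whole table.

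**Figure D1:**
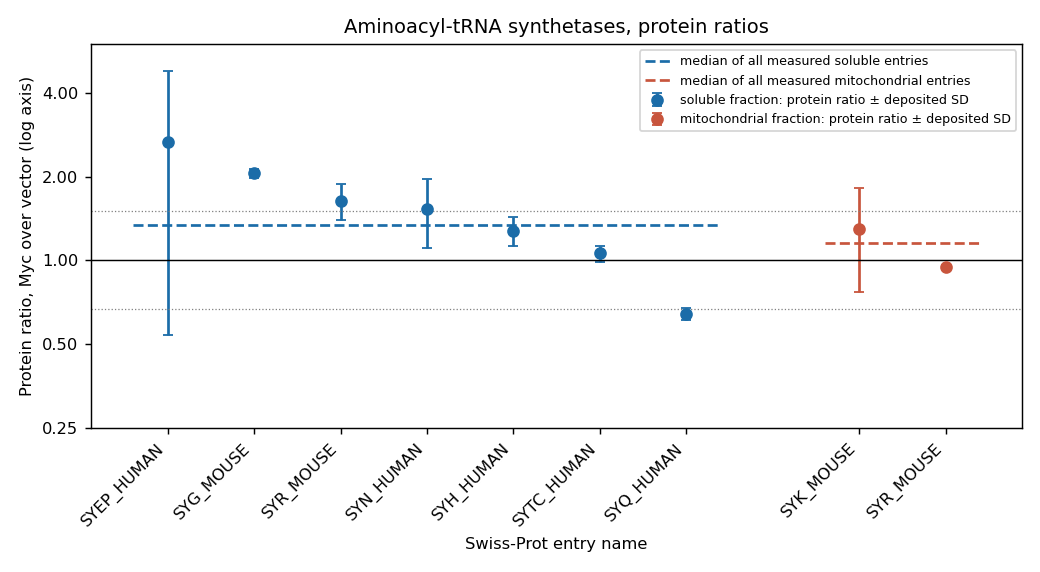
Protein ratios of Myc over vector (log axis) for the 7 measured and reported synthetases of the soluble fraction and the 2 of the mitochondrial fraction, with the deposited SD as bars, dashed lines at each fraction's median, a solid line at 1 and dotted lines at 1.5 and 0.667. The soluble ratios run from 0.643 to 2.66, and the error bar of SYEP_HUMAN spans most of the axis.

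Ratios of the 7 ran from 0.643 to 2.66 with a median of 1.53 (log2 0.62), against the 1.34 (log2 0.43) of all soluble entries. There were 6 of 7 above 1, where 71.0% of all soluble entries lay, and 4 of 7 above the median of the fraction. The authors' files do not say whether ratios were centred. With the soluble median taken as the starting point, 1 synthetase was higher (glycyl) and 1 lower (glutaminyl), where 12.9% of all soluble entries were higher and 17.0% lower. Arginyl-tRNA synthetase lost its call, at 1.22 times the median.

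**Figure D2:**
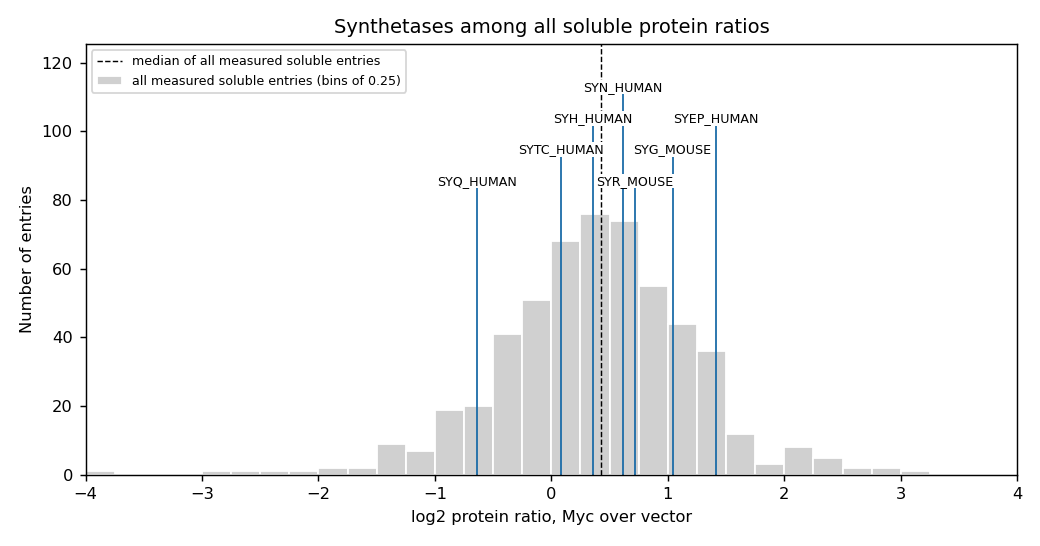
Number of measured soluble entries by log2 protein ratio of Myc over vector, in bins of 0.25 (grey bars), with a vertical line for each of the 7 synthetases and a dashed line at the median of all entries (0.43). The synthetases are spread across the body of the distribution, with SYQ_HUMAN at -0.64 and SYEP_HUMAN at 1.41.

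Glycyl-tRNA synthetase (SYG_MOUSE, Gars1 in RefSeq build GRCr8 on chromosome 4 from 85484939 to 85542876), a class II enzyme outside the complex, rested on 1 line of a peptide of 17 residues, identified in its light form, at 2.06 ± 0.078. That ratio lay above 81.4% of the soluble entries and was 1.53 times the median of the fraction, close to the fold that the rule asks for.

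Arginyl-tRNA synthetase (SYR_MOUSE, Rars1 on chromosome 10 from 20774804 to 20799251), a class I member of the complex, was the synthetase with the most measured lines. A peptide of 17 residues gave 1.73 ± 0.230. A peptide of 15 residues gave 1.61 ± 0.068, 1.29 ± 0.102 and 1.61 ± 0.074 on 3 lines. All 4 lines lay above 1, and the median of each peptide differed from the other's by 1.08-fold. Between the lines of the 15-residue peptide the largest gap was 1.26-fold, or 2.54 combined deposited errors, so the same peptide in the same mixture varied by more than its deposited SD.

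Glutaminyl-tRNA synthetase (SYQ_HUMAN, Qars1 on chromosome 8 from 118086243 to 118094274), a class I member of the complex, was the only reported soluble synthetase below 1. Its 0.643 ± 0.031 came from 1 line of a peptide of 9 residues with a probability of 0.940, and 9.78% of the soluble entries were lower still. It passed the rule with a fold only just beyond 0.667. It also passed as lower against the soluble median, at 0.478 times that value.

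The fused glutamyl- and prolyl-tRNA synthetase (SYEP_HUMAN, Eprs1), which holds a class I and a class II enzyme in 1 chain and belongs to the complex, had the top ratio but did not pass the rule, at 2.66 ± 2.12. Its peptides disagreed. A peptide of 12 residues, identified in its heavy form, gave 4.24 ± 0.195, and a peptide of 8 residues, identified in its light form, gave 1.32 ± 0.031. They lay 3.21-fold and 22.6 combined errors apart, and both were above 1. Of the 84 soluble entries with ratios from exactly 2 peptides, 6 (7.14%), the fused enzyme among them, had peptides at least this far apart. The median gap was 1.46-fold. Which part of the fused chain each peptide belongs to was not determined here.

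Asparaginyl-tRNA synthetase (SYN_HUMAN, Nars1), a class II enzyme outside the complex, stood at 1.53 ± 0.424, past the fold but only 1.54 errors from 1. A peptide of 14 residues gave 1.67 ± 0.314. A peptide of 15 residues gave 1.20 ± 0.300 on both of its lines, the heavy and the light form, with identical values and errors. These peptides were 1.39-fold and 1.05 combined errors apart, so they did not differ beyond their errors.

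Histidyl-tRNA synthetase (SYH_HUMAN, Hars1), a class II enzyme, stood at 1.28 ± 0.153 on 1 line, which was 2.06 errors from 1 but short of the fold. Threonyl-tRNA synthetase (SYTC_HUMAN, Tars1 on chromosome 2 from 62095978 to 62114802), also of class II, stood at 1.06 ± 0.069 on 1 line. Both lay below the median of the fraction, the threonyl enzyme at 0.788 times it.

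The beta chain of phenylalanyl-tRNA synthetase (Farsb on chromosome 9 from 87336321 to 87395546), which pairs with an alpha chain to make the class II enzyme, was identified but not measured. The authors' legend gives codes in place of a ratio for peaks not detected in one or both forms. Its human entry (SYFB_HUMAN) had 1 line, and its mouse entry (SYFB_MOUSE) 3 lines over 2 peptides, and each line and both protein ratios held such codes. Of the 17 soluble synthetase lines these 4 were coded, and 2 of 9 entries had no ratio, where 12.6% of all soluble entries had none.

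**Figure D3:**
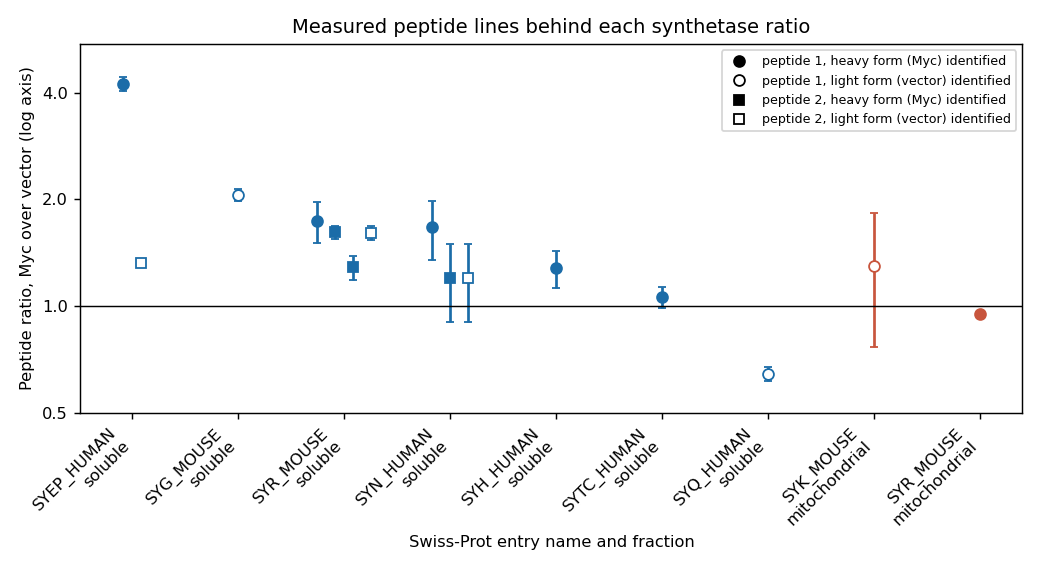
Each measured peptide line of the synthetases as its ratio of Myc over vector (log axis) with the deposited SD, blue for the soluble and red for the mitochondrial fraction, circles and squares for the first and second peptide of an entry, filled where the heavy form (Myc) and open where the light form (vector) was identified. The SYEP_HUMAN peptides stand at 4.24 and 1.32, while the 4 SYR_MOUSE soluble lines lie between 1.29 and 1.73.

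Of the 21 pairs among the 7 soluble synthetases, 8 had protein ratios that differed by 1.5-fold or more and by over 2 combined errors. The share of pairs of any soluble entries that pass this rule was not counted. The 8 therefore do not show a spread particular to synthetases. Glutaminyl-tRNA synthetase was apart from 5 of the other 6, all but the fused enzyme. The threonyl and glycyl enzymes were apart from 3 each, and the histidyl and arginyl enzymes from 2 each. The fused enzyme, with its wide error, was apart from none of the 6.

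The ranges of synthetases in and outside the complex overlapped. The 3 members with a value here (fused, arginyl and glutaminyl) ran from 0.643 to 2.66 with a median of 1.64, with 1 higher and 1 lower. The 4 outside it (glycyl, asparaginyl, histidyl and threonyl) ran from 1.06 to 2.06 with a median of 1.41, with 1 higher and 0 lower. Over all soluble entries 30.6% were higher and 8.12% lower. Set against the soluble median, 0 members were higher and 1 lower, and outside the complex 1 was higher and 0 lower. There, 12.9% of all soluble entries were higher and 17.0% lower. By class, the 2 enzymes of class I alone stood at 1.64 and 0.643, on either side of 1. The 4 of class II alone are the 4 outside the complex. No test can be made between such groups in 1 mixture.

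The scaffold protein p43 of the complex (MCA1_HUMAN, rat gene Aimp1) fell to 0.550 ± 0.026 on 1 line with a probability of 0.987. It passed as lower against the soluble median as well, and 6.27% of soluble entries were lower. Against this scaffold the arginyl enzyme was 2.98-fold higher, beyond 2 combined errors. The glutaminyl enzyme was 1.17-fold higher, within the fold of the rule, and the fused enzyme was 4.84-fold higher at 1.97 combined errors, just inside the error limit. The 4 measured enzymes outside the complex were each at least 1.93-fold higher than the scaffold and beyond 2 combined errors. The scaffold itself stood at 0.409 times the soluble median, so most soluble entries of any kind lie above it. The share of all soluble entries that pass this rule against the scaffold was not counted.

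Of the 3 soluble calls 2 rested on 1 measured line. Across the soluble table, 147 peptides had exactly 2 different measured values. These differed by a median of 1.46-fold, 48.3% of them by at least 1.5-fold, and 40.8% by more than 2 combined deposited errors. The glycyl, glutaminyl and p43 ratios each rested on 1 measured line with a deposited error between 3.79% and 4.82%, and had no second value in their mixture to set beside it.

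In the crude mitochondrial fraction, neither measured synthetase was higher or lower by the rule, where 10.9% of the 201 measured entries were higher and 7.46% lower. Lysyl-tRNA synthetase (SYK_MOUSE, Kars1), a class II member of the complex that serves both the cytosol and the mitochondrion, stood at 1.30 ± 0.529 on 1 line. Arginyl-tRNA synthetase stood at 0.948 ± 0.014, also on 1 line, which was 3.62 errors below 1 but far short of the fold. The lysyl ratio lay above and the arginyl ratio below the 1.15 of the fraction's median, and lysyl-tRNA synthetase was seen in no other fraction.

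Arginyl-tRNA synthetase was the one reported synthetase entry that was measured in more than 1 fraction. Its ratio was 1.64 ± 0.248 in the soluble and 0.948 ± 0.014 in the mitochondrial fraction, 1.73-fold (log2 0.79) and 3.61 combined errors apart. The mitochondrial line was the 15-residue peptide that the soluble table also held, and its 0.948 lay below each of the 3 soluble lines of that peptide. By the same rule, 18.5% of the 54 entries measured in both tables were higher in the soluble fraction, and 0 were higher in the mitochondrial one. With each fraction centred on its own median the gap was 1.49-fold (log2 0.57), just short of 1.5, so the difference did not pass the rule then.

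The mitochondrial table also held a soluble synthetase peptide under an entry that has no Swiss-Prot name and is therefore not a member. The 14-residue peptide of the asparaginyl enzyme gave 0.924 ± 0.240 there, against which the soluble 1.67 ± 0.314 was 1.80-fold but only 1.84 combined errors higher. Relative to the medians of the fractions the gap was 1.36 combined errors.

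Both reported synthetase peptides shared by these fractions thus had the higher ratio in the soluble fraction, by 1.70-fold (arginyl) and 1.80-fold (asparaginyl) when each peptide took the median of its lines. The lowest of the 3 soluble arginyl lines was 1.36-fold above the mitochondrial one, short of the fold, and the other 2 passed the rule at 1.70-fold. Relative to the medians of the fractions those 2 were 1.46-fold higher, and none of the 3 passed. Of the 166 peptides of any protein measured in both, likewise by medians of lines, 66.9% had the higher ratio in the soluble fraction, by a median of 1.31-fold over all of them, and 44.0% were at least 1.5-fold higher there. The amount of protein per label was 2.5 mg in the soluble and 250 ug in the mitochondrial fraction, and its part in the difference was not tested.

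**Figure D4:**
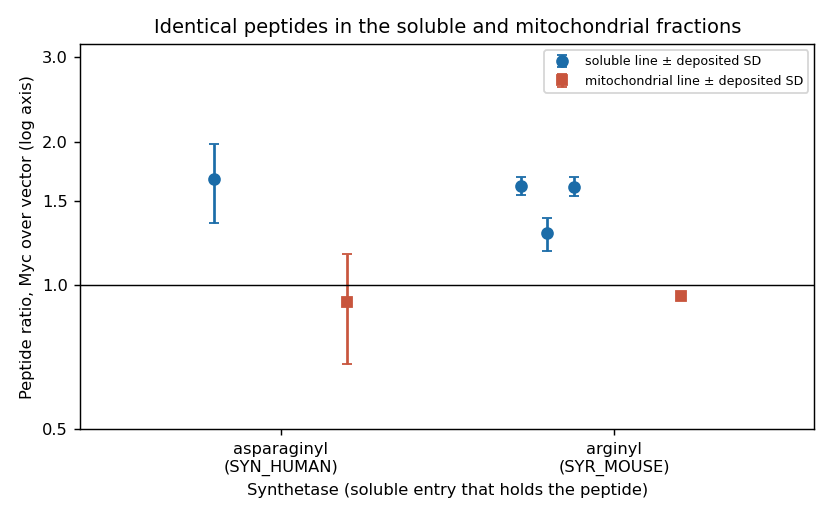
Ratios of Myc over vector (log axis) with the deposited SD for the 2 identical synthetase peptides measured in the soluble (blue circles, 1 per line) and the mitochondrial fraction (red squares). Each mitochondrial value (0.924 and 0.948) lies below every soluble line of its peptide.

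Other proteins that handle amino acids and charged transfer RNA were looked up by a list of 30 entry names, of which 14 were found. Of 13 soluble entries 3 were higher, 1 (the p43 scaffold) was lower and 9 did not pass, at a median of 1.35, almost that of the fraction. Over all soluble entries 30.6% were higher and 8.12% lower, so the count of higher ones in this list is no larger a share than in the whole table. The higher ones were the La protein, which binds and protects newly made transfer RNA (LA_HUMAN, 2.66 ± 0.696), cytosolic serine hydroxymethyltransferase, which makes glycine from serine (GLYC_HUMAN, 1.85 ± 0.120), and elongation factor 1-alpha, which carries charged transfer RNA to the ribosome (EF11_HUMAN, 1.67 ± 0.399, from 8 peptides). Set against the soluble median, the La protein alone of these 3 still passed, and its ratio rested on 1 peptide over 5 lines.

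The beta subunit of elongation factor 1, which recharges elongation factor 1-alpha with GTP, and the gamma subunit did not pass the rule in the soluble fraction. The beta subunit stood at 1.33 ± 0.044 by its mouse entry (EF1B_MOUSE) and at 0.874 ± 1.06 by its human entry (EF1B_HUMAN), and the gamma subunit at 1.29 ± 0.248 (EF1G_HUMAN). Glutamine synthetase, which makes the amino acid that the lowest synthetase charges, stood at 1.35 ± 0.058 (GLNA_MOUSE), the median of the fraction.

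In the chromatin-enriched fraction, where no synthetase was listed, 2 of 7 entries of this list were higher and 0 lower: the delta subunit of elongation factor 1 (EF1D_MOUSE, 1.57 ± 0.134) and mitochondrial serine hydroxymethyltransferase (GLYM_HUMAN, 1.74 ± 0.474). Of all 364 measured chromatin entries 20.3% were higher and 7.42% lower. Neither passed against the median of that fraction. Mitochondrial serine hydroxymethyltransferase did not pass in the soluble fraction, at 1.82 ± 0.618 (GLYM_HUMAN). In the mitochondrial fraction, where 10.9% of all entries were higher, 1 of 3 was, the serine synthesis enzyme phosphoglycerate dehydrogenase (SERA_MOUSE, 3.00 ± 0.365). By its human entry (SERA_HUMAN) this enzyme did not pass in the soluble (1.52 ± 0.493) or the chromatin-enriched fraction (2.76 ± 3.96). Elongation factor 1-alpha did not pass in the chromatin-enriched fraction (EF11_HUMAN, 1.40 ± 0.264, from 4 peptides) or the mitochondrial one (EF11_MOUSE, 1.09 ± 0.306).

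The gene start regions were looked at for the motif that Myc and its partner Max are known to bind, the E-box CACGTG, which reads the same on both strands. The window ran from 250 bases before to 50 bases after the start in RefSeq's GRCr8 table, which held 8 of 10 genes (the 9 synthetases and Aimp1). That table held no window for Gars1 and Rars1, the genes of the 2 synthetases that rose. The motif lay in 2 of the 8, and in 6.42% of all 33469 windows in the table. The 2 were Farsb, whose protein was not measured, and Tars1, whose protein stood at 1.06 ± 0.069. The motif was absent from the windows of Qars1 and Aimp1, the genes of the proteins that fell. The sequences show the motif, in capitals, with its neighbours on the strand of the gene. The start from which the table counts lay at the outer end of the gene span for 5 of the 8 genes and inside the span for 3, by 41 bases in Farsb, 68 bases in Kars1 and 1298 bases in Eprs1. In Farsb (chr9:87395512-87395541, minus strand) the motif begins 24 bases before the table's start, and therefore lies inside the gene span given above. In Tars1 (chr2:62114779-62114808, minus strand), where the start and the outer end coincide, it begins at base 7 after the start.
Farsb: gctgaggccccgCACGTGgcgcaggcgcag
Tars1: ttccgcctgggcCACGTGgcgcacgcgcag
Such a match describes these windows only, and binding was not measured.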

How the data were processed

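Per the labels' protocols, the authors searched the spectra against protein sequences of rat, mouse and human, scored identifications with PeptideProphet and ProteinProphet, and computed linear ratios of Myc over vector with ASAPRatio. Versions of these tools are not given in the sources used here. The deposited tables give, per peptide line, a probability, a ratio and its SD, and a text cell that holds the protein ratio, its SD and the number of peptides, which was read out by pattern on every line. Ratios that hold one of the 3 codes of the deposited legend were treated as not measured. The lowest probability was 0.502 in the whole series and 0.923 among synthetase lines.

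With 1 mixture per fraction (3 in all) no test across samples was possible and no p-value is given. Errors were the deposited SD over the ratio, on the natural log scale, and combined errors the root of their summed squares. Percent values are shares of entries or lines. The call rule was tested on simulated data whose noise was drawn from the deposited errors, kept within limits. That run cannot show whether the deposited errors are large enough. The changes set in it were larger than those of the soluble calls, so it cannot show how the rule performs at their size. The members, lists and rules were chosen with earlier results of these data known. Every member is named but 1, which is not reported here and is left out of each count, median and figure of members. Peptide sequences were compared between tables but are not printed. Gene positions and windows are from RefSeq (GRCr8), found by symbol for 10 of 10 genes. Python 3.11.15, numpy 2.4.6, pandas 2.3.3 and matplotlib 3.10.9 were used. Other settings of the rule, of the centring, of the minimum evidence per entry and of how an entry's value is formed were also run.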

Additional observations from a re-analysis of the deposited data

Results flagged for a closer look

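Arginyl-tRNA synthetase (SYR_MOUSE) lay above 1 in the soluble fraction, at 1.64 ± 0.248, and below 1 in the mitochondrial fraction, at 0.948 ± 0.014, a difference of 0.79 on the log2 scale. The opposite sides of 1 drew attention to it. The medians of these fractions were themselves above 1, at 1.34 and 1.15. Relative to them the gap was 1.49-fold and did not pass the rule. Of the 54 entries measured in both fractions, 18.5% were higher in the soluble and 0 in the mitochondrial one. With 1 mixture per fraction the difference was not tested across samples, and the mitochondrial value rested on 1 line.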

How the results depend on the processing

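The 3 soluble calls were 1 with a fold of 2 (glycyl, where 16.4% of all soluble entries were higher and 3.32% lower), 1 with at least 2 peptides (arginyl, a setting that leaves 3 synthetases, where 33.3% were higher and 2.38% lower), and 5 with no error rule (4 higher and 1 lower, where 41.0% were higher and 10.7% lower). Under the other 6 settings the count stayed between 2 and 4. Across these, the share of all soluble entries ran from 12.9% to 39.7% higher and from 6.15% to 17.0% lower. The median log2 ratio of the soluble synthetases, 0.62, was 0.36 when each entry took the median of its measured peptide lines. There the asparaginyl enzyme stood at 0.26, because the identical heavy and light lines of 1 of its peptides were each counted. The median of the soluble synthetases was 0.19 once centred on the soluble median, by construction of that setting. The gap between the soluble and mitochondrial ratios of arginyl-tRNA synthetase, 0.79, was 0.57 relative to each fraction's median, an alternative chosen after seeing the data, and no longer passed the rule. Arginyl-tRNA synthetase lost its soluble call under that centring, and the fused enzyme gained one when its peptides' median was used without an error rule. The mitochondrial count was 0 under each of the 9 settings that could be run. There, 4.48% to 21.4% of all mitochondrial entries were higher and 2.49% to 12.4% lower. With at least 2 peptides no mitochondrial entry was left, and for the chromatin fraction no setting gave a value, since it held no synthetase. No paired analysis was possible because each fraction was 1 mixture. With 1 measured line behind most ratios, and no depth or intensity used here, small differences between synthetases cannot be resolved.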
